A study of Mus musculus with 12 samples.

Results

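The mitochondrially encoded genes were taken as the rows of the count table whose gene name starts with mt-, which gave 37 of 48440 rows, made up of 13 mRNAs, 2 rRNAs and 22 tRNAs. Their reads were followed in primary mouse hepatocytes during a time course of actinomycin D, a drug used to block transcription. The question of the experiment was whether transcripts decay at another rate when hepatocytes lack Mettl3, the catalytic subunit of the methyltransferase that writes m6A on nuclear mRNA. The 12 libraries formed 6 groups of 2 replicates. The Mettl3 cKO groups came from C57BL/6J mice with floxed Mettl3 alleles and a heterozygous Cre driven by the Alb enhancer and promoter, which acts in hepatocytes, and the Control groups (WT in the labels) were set against them. All cells were cultured for 16 h and then held in 5 µM actinomycin D for 0, 2 or 6 h, so the 0 h groups are cultured cells without drug exposure and not fresh liver. Age and sex are not given in the sources used here. Nor do they say if the 2 replicates of a group were separate mice or cultures, so the spread behind each p-value may be technical only.

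The mitochondrial genome is a small circle that is transcribed from both strands into long precursors. The tRNAs lie between the other genes and are cut out, which frees the rRNAs and mRNAs. The mRNAs encode core subunits of respiratory complexes I (mt-Nd genes), III (mt-Cytb) and IV (mt-Co genes) and of ATP synthase (mt-Atp genes). The polymerase, the processing enzymes and the degradation enzymes that act on these RNAs are all nuclear gene products. Hepatocytes hold many mitochondria, and most mature mitochondrial mRNAs carry short poly(A) tails, so poly(A) libraries contain them. The ND6 mRNA is a known exception in human cells, where it lacks a regular tail.

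Of the 37 members, 10 had enough reads to be compared, each with more than 100 reads in every library. They were mt-Rnr1 and mt-Rnr2 (the small and large ribosomal RNAs), the mRNAs mt-Nd1, mt-Nd2, mt-Co1, mt-Nd4, mt-Nd5, mt-Nd6 and mt-Cytb, and a single tRNA, mt-Tp. The mRNAs mt-Co2, mt-Atp6 and mt-Nd3 had 2, 3 and 3 reads over all 12 libraries, and mt-Co3, mt-Atp8, mt-Nd4l and the other 21 tRNAs had 0. These 27 members were below any level that could be compared. At these depths 0 reads allow at most 0.143 to 0.177 CPM (reads scaled to the library total, here 3 reads), and that limit holds only for reads that could be placed uniquely, because the authors kept uniquely mapped reads.

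The mRNAs with almost no reads lay in one stretch of the mitochondrial chromosome that has an annotated copy in the nuclear genome. In mm10 the stretch runs on chromosome M from mt-Co2 (7013 to 7696) to mt-Nd4l (9877 to 10173). The copy is a row of 7 unprocessed pseudogenes on the minus strand of chromosome 1 between 24611535 and 24616197. Among windows of 150 bases, the read length, 99.4% of those in mt-Co2, 99.4% in mt-Atp6, 99.8% in mt-Co3, 97% in mt-Nd3 and 98.0% in mt-Nd4l occurred unchanged in an annotated nuclear transcript. The share was 0% in mt-Atp8, which is only 204 bases long, overlaps mt-Atp6 by 43 bases and also had 0 reads. Nuclear sequence outside annotated transcripts was not searched, so 0% does not show that mt-Atp8 lacks a nuclear copy. The 7 nuclear copies themselves held 322 reads over all libraries, with at most 23 for a single copy in a single library. Few reads of the stretch were thus counted there.

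**Figure D1:**
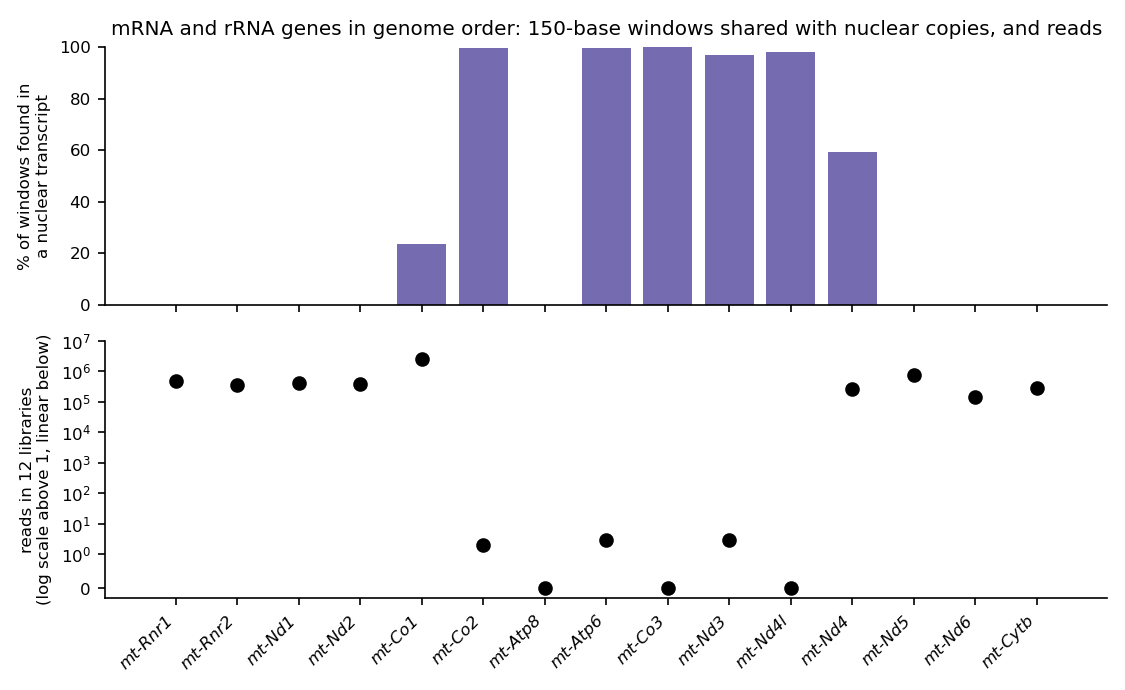
Upper panel: percent of the 150-base windows of each mitochondrial mRNA or rRNA gene that occur unchanged in an annotated nuclear transcript. Lower panel: reads summed over 12 libraries, on a scale that is logarithmic above 1. The genes with 97% to 99.8% of their windows in a nuclear copy had 0 to 3 reads. Another gene, mt-Atp8, had 0 reads with 0% of its windows shared, but sequence outside annotated transcripts was not searched. The other genes had more than 100 reads in every library.

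Of the counted mRNAs, mt-Co1 and mt-Nd4 run across the ends of that copy, and 23.6% and 59.2% of their windows were shared with it. The table holds gene totals only, so where their reads lie along each gene was not measured. The 2 borders are shown because they mark where the exact matches of 150 bases end or begin. Reads that cross a border can still be placed uniquely. Sequences are from Gencode release M21 for mm10, written 5′ to 3′ on the plus strand of chromosome M. Capitals mark bases outside the stretch that shares windows of 150 bases with the annotated copy. The first (chrM:11003-11082) shows where the shared stretch ends after base 876 of mt-Nd4, and the second (chrM:6354-6433) shows where it begins at base 1067 of mt-Co1.
mt-Nd4: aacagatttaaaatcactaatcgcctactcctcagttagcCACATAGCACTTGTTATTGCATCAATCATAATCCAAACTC
mt-Co1: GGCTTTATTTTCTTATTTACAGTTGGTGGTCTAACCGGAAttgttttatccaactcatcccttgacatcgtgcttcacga

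The tRNAs are 59 to 75 bases long and abut their neighbours. Among the 21 tRNAs with 0 reads the widest free space to an annotated neighbour was 32 bases, leaving out the open side of mt-Tf. The counted tRNA, mt-Tp, is the last gene of the linear annotation (15356 to 15422, minus strand), with no annotated gene after it. A read pair over mt-Tp can thus extend into unannotated sequence, and its row need not hold the mature tRNA. On the circle mt-Tf (1 to 68), with 0 reads, borders the same unannotated sequence from the other side.

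The libraries did not mark strand, so sense and antisense reads at 1 locus cannot be told apart. This bears on mt-Nd6, the only mRNA encoded on the minus strand (13552 to 14070), which overlaps the end of mt-Nd5 (11742 to 13565) by 14 bases. The ends of both genes are printed to show that overlap, in capitals, each on its own coding strand (chrM:13536-13565, plus strand, and chrM:13552-13581, minus strand).
mt-Nd5: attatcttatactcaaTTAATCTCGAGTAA
mt-Nd6: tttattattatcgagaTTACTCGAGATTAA

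Before the comparisons, the libraries themselves need a description. Totals ran from 16952084 to 20914516 reads. The Control libraries at 6 h stood apart, with 20246 and 16565 reads of Xist, which is transcribed from the inactive X, against at most 6 in every other library, and with at most 1 read of the Y-linked Ddx3y against at least 2440 elsewhere. The difference between the 6 h groups, and that between 6 h and 0 h in Control, therefore cannot be told apart from a difference of sex. Mettl3 had 22.6 and 23.2 CPM in cKO libraries and 33.4 and 28.5 in Control libraries at 0 h, a log2 difference of −0.43 (SE 0.10). At 2 h the difference was 0.00 and at 6 h it was 0.60, higher in the libraries labelled Mettl3 cKO. Counts over the whole gene do not check the deletion of an exon, so the groups are called here by their labels. Hepatocyte markers were high everywhere, with a summed level over 8 genes of 49631 to 106326 CPM. At 0 h this sum was 49631 to 52818 in cKO libraries and 53030 to 54516 in Control libraries. At 0 h the summed level of 8 macrophage markers was 404 to 445 in cKO libraries and 185 to 186 in Control libraries, and that of 6 bile duct markers was 66.2 to 73.3 and 184 to 196. The 8 endothelial markers summed to 308 to 345 in cKO and 260 to 272 in Control, and the 8 stellate markers to 209 to 226 and 158 to 163. None of these markers was at 0 in either 0 h group, and the part of such cells in the results below was not tested. In bulk samples, fewer cells of a type and less RNA per cell cannot be told apart.

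Together the mt- rows took a smaller share of the reads in every library labelled Mettl3 cKO than in any Control library. At 0 h the share was 2.31% and 1.90% in cKO, against 2.91% and 3.20% in Control. At 2 h it was 1.78% and 1.66% in cKO, against 2.87% and 2.83% in Control. At 6 h it was 1.76% and 1.68% in cKO, against 2.71% and 3.14% in Control. The genotypes did not overlap at any time. The widest 95% Wilson interval was 0.00826 percentage points on either side, which covers counting error only and is far below the gap between replicates. The share is a sum over members and was given no test. The mRNAs alone took 1.98% and 1.62% of reads in cKO at 0 h, against 2.63% and 2.88% in Control, while the rRNAs took 0.322% and 0.270% in cKO, against 0.274% and 0.313% in Control. The shares of the rRNAs overlapped at 0 h but not later. At 2 h they were 0.288% and 0.270% in cKO, against 0.343% and 0.353% in Control, and at 6 h they were 0.430% and 0.421% in cKO, against 0.503% and 0.554% in Control.

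**Figure D2:**
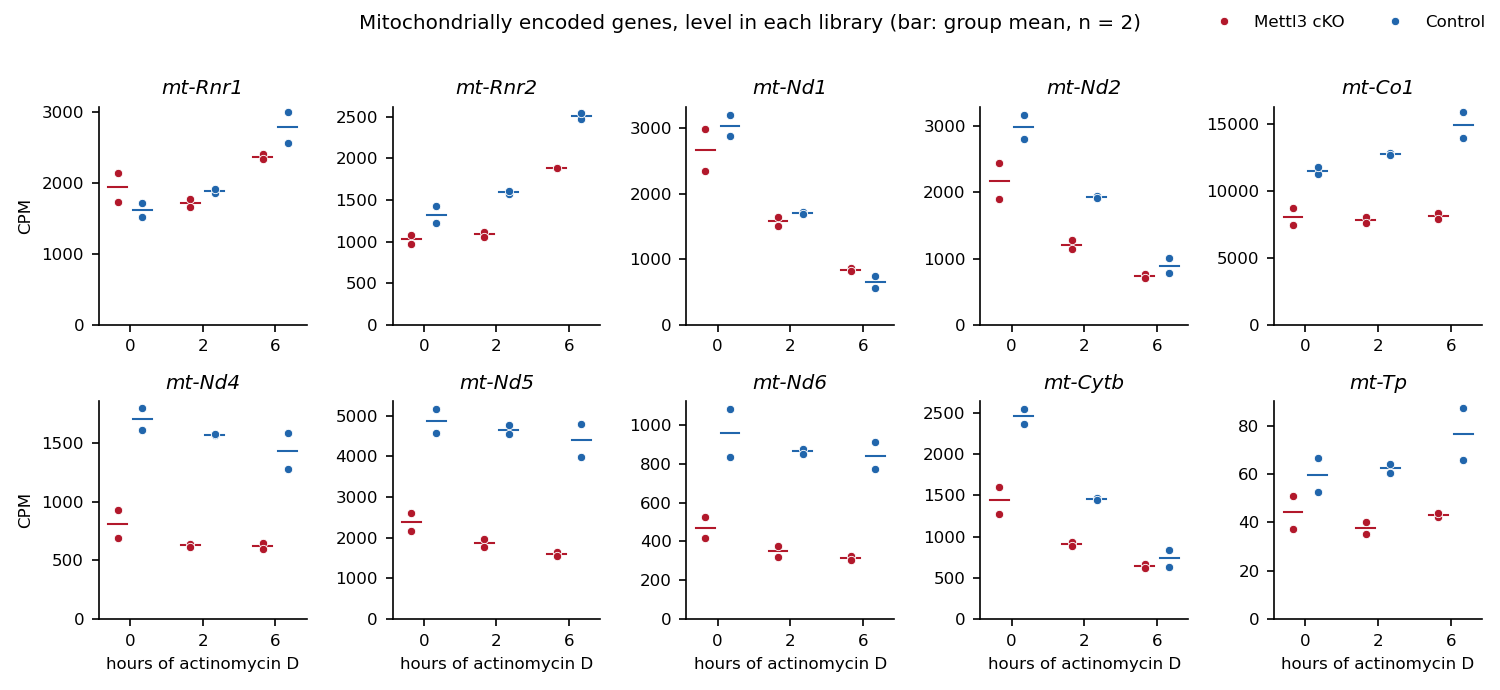
Level of the 10 counted members in each of the 12 libraries, in CPM on linear axes that start at 0, against hours of actinomycin D. Points are libraries and bars are group means (n = 2). For mt-Co1, mt-Nd4, mt-Nd5, mt-Nd6 and mt-Tp every cKO library lies below every Control library, by little for mt-Tp. The share of all genes that separate so was not counted. Levels of mt-Nd1, mt-Nd2 and mt-Cytb decline with time in both genotypes.

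Levels between genes were compared per kilobase of annotated length. At 0 h mt-Co1, the catalytic subunit of complex IV, was the highest with 5221 ± 568 CPM per kilobase in cKO and 7451 ± 257 in Control (SD, n = 2 each). Next in Control came mt-Nd1 with 3181 ± 230.4, then mt-Nd2 with a mean of 2882 and mt-Nd5 with 2673 ± 229. The libraries of mt-Nd1 and mt-Nd2 overlapped, as did those of mt-Nd2 and mt-Nd5. This order leaves out mt-Nd4 (1239.8 ± 93.3 in Control), because its annotated length and that of mt-Co1 include the part shared with the nuclear copy. In cKO mt-Nd1 had 2783 ± 473 and mt-Nd5 had 1307 ± 175. The order of mt-Rnr1 and mt-Nd5 differed between the genotypes at 0 h, since mt-Rnr1 had 2026 ± 307 in cKO and 1686 ± 149 in Control. Poly(A) selection enriches tailed RNA, so the rRNA values are not the full rRNA content.

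Differences were tested with edgeR's quasi-likelihood test on all 14488 genes kept by a filter on low counts, with library totals as the scale and Benjamini-Hochberg adjustment over all genes (called at an adjusted p under 0.05). At 0 h, 8 of the 10 members were lower and 1 was higher in the libraries labelled Mettl3 cKO, against 22.5% of all genes called lower and 31.9% called higher. The median log2 difference of the 10 members was −0.49, and that of all genes was 0.07. The members fell into groups by size of the difference, largest for the complex I genes mt-Nd4, mt-Nd5 and mt-Nd6.

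The gene mt-Nd5, which encodes a proton-pumping subunit of complex I, had 2610.2 and 2159 CPM in cKO libraries at 0 h, against 4580 and 5171 in Control libraries. Both cKO libraries were below both Control libraries, with a log2 difference of −1.03 (SE 0.08, 0.489-fold, adjusted p = 3.61e-10). For mt-Nd4, another pumping subunit, the values were 931 and 695 in cKO, against 1618 and 1799 in Control. Its log2 difference was −1.07 (SE 0.10, adjusted p = 2.91e-09). The row of mt-Nd6 held 524 and 415 in cKO, against 834 and 1083 in Control, and differed by −1.03 (SE 0.10, adjusted p = 2.25e-08). The groups did not overlap for any of these 3 genes, and their 95% intervals at 0 h lay between −1.27 and −0.81. The share of all genes without overlap was not counted, so the lack of overlap does not single out these members. Reads of mt-Nd6 were 0.181 to 0.209 times those of mt-Nd5 in all 12 libraries, so the 2 rows moved together. This was not particular to that pair, since reads of mt-Nd4 were 0.321 to 0.391 times those of mt-Nd5. Since mt-Nd6 lies antisense to the sequence just after mt-Nd5 and strand was not marked, its row may hold reads of either strand, and their shares were not tested.

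Smaller differences were found for mt-Cytb, mt-Co1, mt-Nd2, mt-Tp and mt-Rnr2. The complex III gene mt-Cytb had 1606 and 1271 CPM in cKO at 0 h, against 2366 and 2545 in Control, a log2 difference of −0.77 (SE 0.09, adjusted p = 2.64e-07). For mt-Co1 the values were 8688 and 7446 in cKO, against 11232 and 11792 in Control, a difference of −0.51 (SE 0.06, adjusted p = 1.78e-07). The complex I gene mt-Nd2 had 2439 and 1896 in cKO, against 2808 and 3174 in Control (−0.46, SE 0.10, adjusted p = 2.92e-04). None of these 3 overlapped between the genotypes, which again was not counted over all genes. For mt-Rnr2, the rRNA of the large ribosomal subunit, the level was 1079 and 971 in cKO, against 1226 and 1423 in Control (−0.37, SE 0.06, adjusted p = 1.60e-05). The call of mt-Tp (−0.43, SE 0.13, adjusted p = 0.00805) was lost without cKO replicate 2 (adjusted p = 0.186), without Control replicate 2 (adjusted p = 0.191) and with DESeq2's Wald test (adjusted p = 0.0737).

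The smallest differences at 0 h were those of mt-Nd1 and mt-Rnr1. The gene mt-Nd1, which encodes a membrane subunit of complex I, had 2984 and 2343 CPM in cKO at 0 h, against 2888 and 3200.0 in Control. The groups overlapped and the log2 difference of −0.19 was not called (95% interval −0.40 to 0.01, adjusted p = 0.104). It was called in 6 of 20 alternative fits, at −0.38 without cKO replicate 1 (adjusted p = 0.00361) and at −0.27 with DESeq2 size factors (adjusted p = 0.0308). For mt-Rnr1, the rRNA of the small subunit, the levels were 2142 and 1728 in cKO, against 1510 and 1711 in Control, a difference of 0.27 (SE 0.08, adjusted p = 0.00634). The gap between the nearest cKO and Control libraries of mt-Rnr1 was smaller than that between replicates. Its call was lost with DESeq2 size factors, with DESeq2's Wald test, and without cKO replicate 1 or Control replicate 1.

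**Figure D3:**
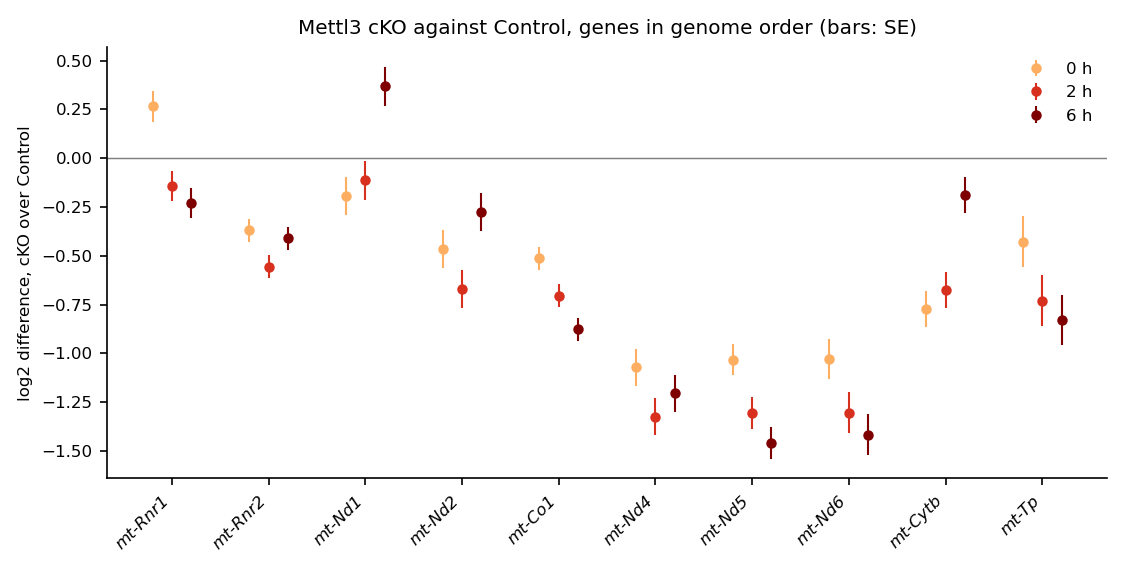
Log2 difference of Mettl3 cKO over Control (vertical axis, bars are SE) for the 10 counted members in the order of their position on the mitochondrial chromosome, at 0, 2 and 6 h of actinomycin D. The points of mt-Nd4, mt-Nd5 and mt-Nd6 lie between −1.03 and −1.46, below those of the other members. The point of mt-Nd1 at 6 h, 0.37 here, was 0.07 with TMM.

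At 2 h, 8 members were lower and 0 were higher in the libraries labelled Mettl3 cKO, against 21.3% and 37.8% of all genes. All 10 values were below 0, and DESeq2's Wald test gave 8 lower and 0 higher. The median of the 10 members was −0.69, and that of all genes was 0.15. The lowest values were again those of mt-Nd4, with 639 and 617 CPM in cKO against 1569 and 1575 in Control (−1.32, SE 0.10), of mt-Nd5, with 1977 and 1780.1 against 4757 and 4536 (−1.31, SE 0.08), and of mt-Nd6, with 378 and 321 against 878 and 848 (−1.30, SE 0.11). Each was 0.400-fold to 0.405-fold of Control. The values of mt-Co1 were 8033 and 7629 in cKO, against 12834 and 12691 in Control (−0.70, SE 0.06, adjusted p = 6.42e-10). The 2 members without a call were mt-Nd1 (−0.11, 95% interval −0.32 to 0.09) and mt-Rnr1 (−0.14, 95% interval −0.30 to 0.02). At 2 h the summed macrophage markers were 462 to 477 CPM in cKO and 219 to 241 in Control, and the bile duct markers were 53.3 to 55.2 and 209.8 to 218. The hepatocyte markers were 65087 to 65445 in cKO and 71205 to 72735 in Control, and the stellate markers 253 to 289 and 209 to 219. The endothelial markers overlapped, at 166 to 208 in cKO and 178 to 180 in Control. The part of all these markers in the 2 h differences was not tested.

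At 6 h, 8 members were lower and 1 was higher in the libraries labelled Mettl3 cKO, against 19.8% and 46.4% of all genes, and the median of the members was −0.62 with 0.32 for all genes. For mt-Nd5 the levels were 1655 and 1545 CPM in cKO, against 3988 and 4799 in Control, a log2 difference of −1.46 (SE 0.08, adjusted p = 2.25e-13). The row of mt-Nd6 differed by −1.42 (SE 0.11) and mt-Nd4 by −1.20 (SE 0.10). The level of mt-Co1 was 8326 and 7935 in cKO, against 13972 and 15878 in Control (−0.88, SE 0.06). The values of mt-Cytb were 665 and 624 in cKO and 635 and 834 in Control, which overlapped (−0.19, 95% interval −0.38 to 0.00, adjusted p = 0.0758). This member was called lower with TMM (−0.48, adjusted p = 1.06e-04), with DESeq2 size factors (−0.54) and without Control replicate 1 (−0.37, adjusted p = 6.54e-05). The only member called higher was mt-Nd1, with 860.1 and 824 in cKO against 554 and 751 in Control (0.37, SE 0.10, adjusted p = 0.00252). That call was lost with TMM (0.07, adjusted p = 0.541), with DESeq2 size factors, with DESeq2's Wald test and without Control replicate 1. At 6 h the summed hepatocyte markers were 67462 to 67473 CPM in cKO and 98696 to 106326 in Control, and the macrophage markers were 280.3 to 301 and 91.7 to 111. The bile duct markers were 51.3 to 54.2 in cKO and 307 to 330.3 in Control, the endothelial markers 66.1 to 73.2 and 25.0 to 25.7, and the stellate markers 248 to 258 and 128 to 133. Their part in the 6 h differences was not tested. The calls of mt-Nd2 (−0.28, SE 0.10) and mt-Rnr1 (−0.23, SE 0.08) at 6 h were lost with DESeq2's Wald test and without cKO replicate 2 or Control replicate 2.

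The scale matters for these statements. TMM and DESeq2 size factors assume that most genes do not differ, and they moved the median of all genes by −0.12 at 2 h and by −0.29 and −0.34 at 6 h between the genotypes. With TMM, 53.1% of all calls at 2 h were higher in cKO, where library totals gave 63.9%, and at 6 h the shares were 51.7% and 70.1%. Among the members TMM gave 0 higher and 9 lower at 6 h. DESeq2 size factors gave 0 higher and 9 lower at 0 h and at 6 h, where 49.5% and 48.4% of all calls were higher. The differences of mt-Nd4, mt-Nd5, mt-Nd6, mt-Co1 and mt-Rnr2 kept their direction and call at all 3 times in each of 60 alternative fits per gene. Over those fits the value of mt-Nd5 ran from −1.81 to −0.90 and that of mt-Co1 from −1.23 to −0.41. Fits that left out a library of another group could hardly move a value, so they bear on the call and not on the direction. With only the 4 libraries of 0 h, 9 members were lower and 1 was higher, and 59.0% of all calls were higher. With only those of 2 h, 10 were lower and 0 were higher, and 63.0% of all calls were higher. These counts thus did not rest on the 6 h Control libraries.

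The make-up of the mitochondrial reads differed with genotype and with time. Of all mt- reads, mt-Nd5 made up 11.3% to 11.4% in cKO at 0 h, against 15.7% to 16.2% in Control, and mt-Rnr1 made up 9.11% to 9.29%, against 5.19% to 5.35%. The share of mt-Co1 was alike, with 37.7% to 39.3% in cKO and 36.9% to 38.6% in Control. A ratio within a library does not depend on the scale. Reads of mt-Nd1 over those of mt-Nd5 gave 1.14 and 1.09 in cKO at 0 h, against 0.631 and 0.619 in Control, then 0.836 and 0.844 against 0.362 and 0.373 at 2 h, and 0.520 and 0.534 against 0.139 and 0.156 at 6 h. The 2 genotypes did not overlap in this ratio at any time. It sets a member with a small genotype difference over one with a large difference, so the gap restates those differences and is no separate support. The ratio of mt-Nd6 to mt-Nd5 at 0 h overlapped, with 0.201 and 0.192 in cKO and 0.182 and 0.209 in Control. How many ratios between members separate the genotypes was not counted. The ratio of mt-Rnr1 to mt-Rnr2 was 1.99 and 1.78 in cKO at 0 h, against 1.23 and 1.20 in Control, and 1.27 and 1.24 against 1.04 and 1.18 at 6 h.

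**Figure D4:**
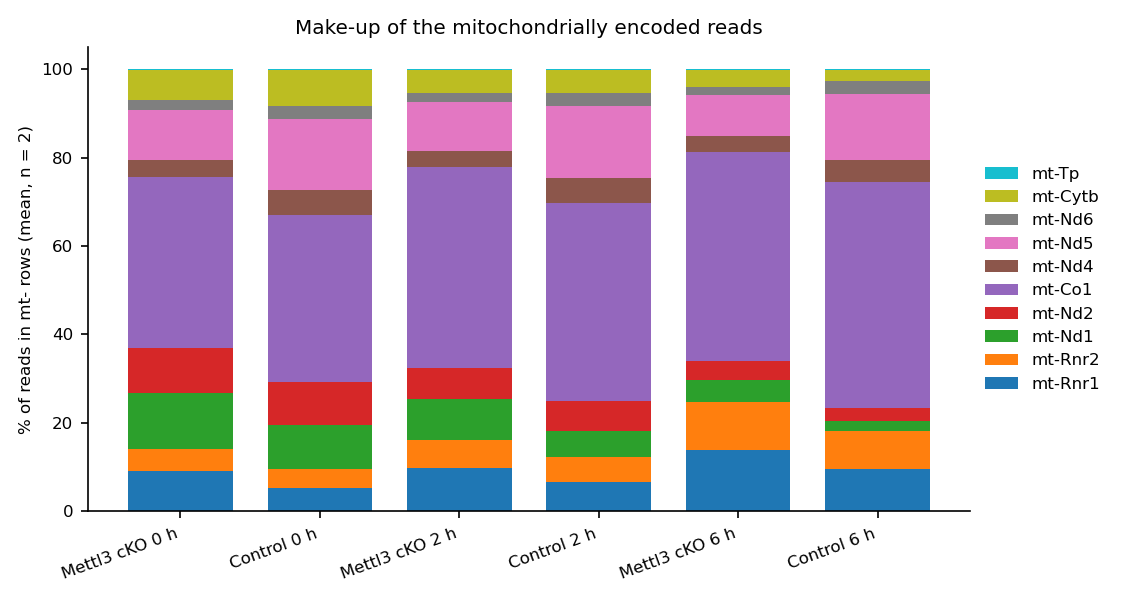
Stacked bars of the percent of all mt- reads in each of the 10 counted members (mean of 2 libraries) for the 6 groups. The share of mt-Nd5 is smaller in cKO than in Control at each time, and the share of mt-Co1 reaches 47.3% in cKO and 51.1% in Control at 6 h.

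After actinomycin D the members took different courses, and 3 sets could be seen in both genotypes by the size of the change. These changes are in CPM, so a member rises on this scale if its level falls less than the rest of the RNA. Whether mitochondrial transcription stopped under the drug was not tested, so the changes are not decay rates. The median of all genes was −0.27 at 6 h against 0 h in cKO and −0.59 in Control. In cKO, 2 members were called higher and 6 lower at 6 h (18.3% and 45.7% of all genes), and in Control 4 were higher and 4 lower (17% and 56.3%). The comparisons of a genotype share its 0 h libraries.

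The first set, mt-Nd1, mt-Nd2 and mt-Cytb, declined in both genotypes. In cKO mt-Nd1 had 2984 and 2343 CPM at 0 h, 1652 and 1503 at 2 h, and 860.1 and 824 at 6 h. In Control it had 2888 and 3200.0, then 1723 and 1691, then 554 and 751. No library of a later time overlapped one of an earlier time in either genotype. The log2 change at 6 h was −1.66 (SE 0.10, adjusted p = 2.02e-12) in cKO and −2.22 (SE 0.10, adjusted p = 5.04e-15) in Control. For mt-Nd2 the change was −1.56 (SE 0.10) in cKO and −1.75 (SE 0.10) in Control, and for mt-Cytb it was −1.16 (SE 0.09) in cKO and −1.74 (SE 0.09) in Control. All 3 changes kept their direction and call in every alternative fit, TMM and DESeq2 size factors included.

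The second set, mt-Nd4, mt-Nd5 and mt-Nd6, changed less. In cKO mt-Nd5 changed by −0.58 (SE 0.08, adjusted p = 1.50e-06), mt-Nd6 by −0.58 (SE 0.10) and mt-Nd4 by −0.39 (SE 0.09, adjusted p = 0.00112) at 6 h against 0 h. In Control the changes were −0.15 (SE 0.08) for mt-Nd5 and −0.19 (SE 0.10) for mt-Nd6, neither called, and −0.25 (SE 0.09, adjusted p = 0.0191) for mt-Nd4, a call lost without Control 0 h replicate 2 or Control 6 h replicate 1. Without Control 6 h replicate 2, mt-Nd5 (−0.29, adjusted p = 8.87e-04) and mt-Nd6 (−0.31, adjusted p = 0.00756) were called lower, as they were without Control 0 h replicate 1 (−0.24 and −0.37). The sign in Control turned with the scale, since TMM gave 0.36, 0.32 and 0.26 for mt-Nd5, mt-Nd6 and mt-Nd4, all called higher. With TMM, 7 members were called higher and 3 lower in Control, and 46.1% of all calls were higher, where library totals gave 23.1%. In cKO the call of mt-Nd4 was lost with TMM, with DESeq2 size factors and without cKO 0 h replicate 1. There the calls were 3 higher and 5 lower with TMM, and 48.8% and 28.6% of all calls were higher with TMM and with library totals.

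The third set held the rRNAs and mt-Co1, none of which was called lower at 6 h against 0 h. In Control mt-Nd5 and mt-Nd6 of the second set were not called lower either, so that trait alone does not separate these sets there. Levels of mt-Rnr2 in cKO were 1079 and 971 CPM at 0 h, 1119 and 1050 at 2 h, and 1889 and 1882 at 6 h. Those in Control were 1226 and 1423, then 1578 and 1612, then 2472 and 2544. The log2 change at 6 h was 0.88 (SE 0.06, adjusted p = 1.22e-11) in cKO and 0.92 (SE 0.06, adjusted p = 2.01e-12) in Control, and both held in every alternative fit. The other rRNA, mt-Rnr1, changed by 0.29 (SE 0.08) in cKO and by 0.79 (SE 0.08) in Control. The cKO call of mt-Rnr1 was lost without cKO 0 h replicate 2 (adjusted p = 0.103). Between 6 h and 0 h mt-Co1 changed by 0.01 (95% interval −0.11 to 0.13, not called, but 0.27 and called with TMM) in cKO and by 0.37 (SE 0.06, adjusted p = 5.70e-06) in Control. The row of mt-Tp changed by −0.04 (SE 0.13, not called) in cKO and by 0.36 (SE 0.13, adjusted p = 0.0124) in Control, a call lost without Control 0 h replicate 1 or Control 6 h replicate 2 and with DESeq2's Wald test.

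**Figure D5:**
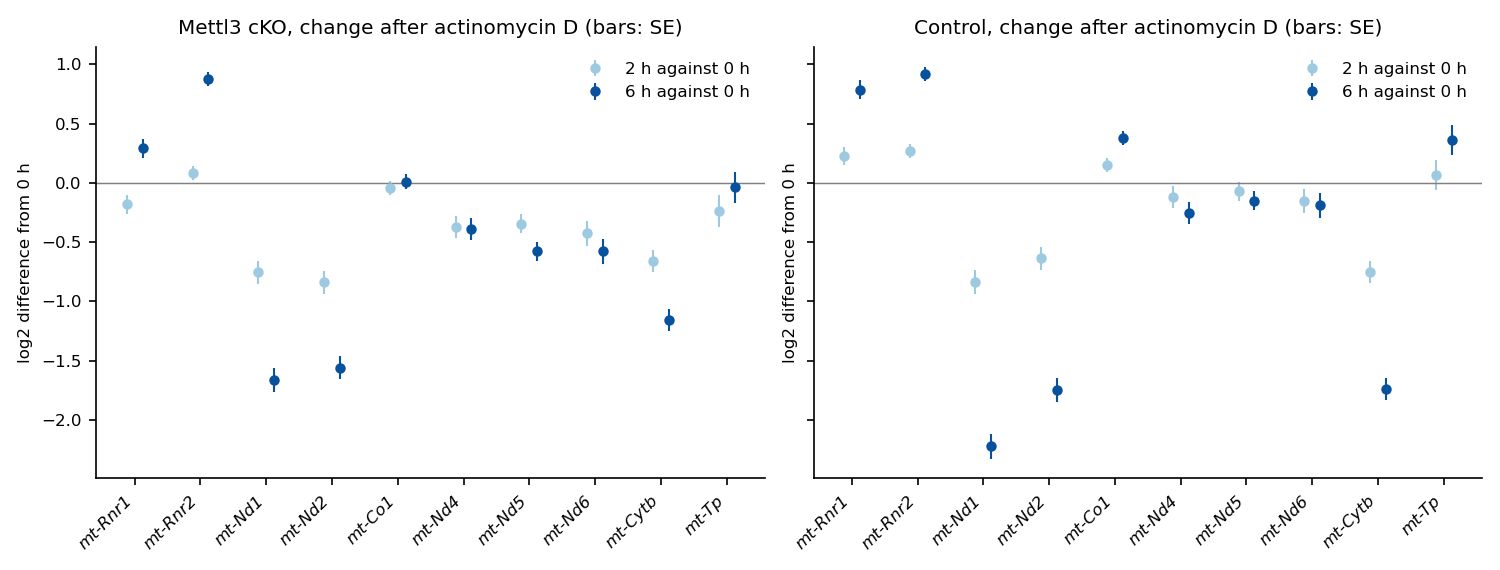
Log2 change from 0 h (vertical axis, bars are SE) after 2 h and 6 h of actinomycin D for the 10 counted members in genome order, cKO left and Control right, on library totals. In both panels mt-Nd1, mt-Nd2 and mt-Cytb lie lowest at 6 h (−2.22 to −1.16) and mt-Rnr2 lies highest (0.88 and 0.92). The Control points of mt-Nd4, mt-Nd5 and mt-Nd6 at 6 h (−0.25 to −0.15) turn positive with TMM.

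At 2 h against 0 h, 0 members were called higher and 6 lower in cKO (12% and 29.2% of all genes), and 3 were higher and 3 lower in Control (12.9% and 36.3%). With TMM 47.4% of all calls were higher in cKO and 48.3% in Control, where library totals gave 29.2% and 26.2%. The cKO count of lower members was 3 without cKO 0 h replicate 1 and 9 without cKO 0 h replicate 2. The 3 higher members in Control were mt-Rnr2 (0.27, SE 0.06), mt-Rnr1 (0.23, SE 0.08) and mt-Co1 (0.15, SE 0.06), and the calls of mt-Rnr1 and mt-Co1 were lost without Control 0 h replicate 1 or Control 2 h replicate 2. In cKO mt-Rnr1 changed by −0.18 (95% interval −0.34 to −0.02, adjusted p = 0.0676) at 2 h. Without cKO 0 h replicate 2 it was called lower (−0.33, adjusted p = 0.00107), as was mt-Co1 (−0.15, adjusted p = 0.044). The first set had already declined at 2 h, with log2 changes of −0.76, −0.84 and −0.66 in cKO and −0.83, −0.64 and −0.75 in Control for mt-Nd1, mt-Nd2 and mt-Cytb (SE 0.09 to 0.10).

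The difference between genotypes in the rate of change was tested as a genotype by hour term over all 12 libraries. Among these only the 6 h Control libraries expressed Xist, so this term cannot be told apart from a difference of sex at 6 h. A positive value means that CPM declined more slowly, or rose faster, in cKO. Of the 10 members, 1 was called positive and 1 negative, against 24.3% and 2.57% of all genes, and the median of the members was −0.04 with 0.04 for all genes. The member called positive was mt-Nd1, with a slope of −0.27 log2 per hour in cKO and −0.37 in Control, a difference of 0.10 (SE 0.03, adjusted p = 0.0488). The member called negative was mt-Co1, with slopes of 0.00 in cKO and 0.06 in Control, a difference of −0.06 (SE 0.02, adjusted p = 0.0375). For mt-Cytb the difference was 0.10 (SE 0.04) with an adjusted p of 0.0546, and for mt-Nd5 it was −0.07 (SE 0.03, adjusted p = 0.0834). The call of mt-Nd1 was lost with TMM (0.05, adjusted p = 0.286) and that of both genes without the 6 h libraries (adjusted p = 0.711 for mt-Nd1 and 0.0758 for mt-Co1). Over 21 alternative fits the call was lost in 14 for mt-Nd1 and in 10 for mt-Co1, among them leaving out single libraries of each time. With TMM, 0 members were positive and 3 negative, and 59.9% of all calls were positive, where library totals gave 90.4%.

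The nuclear genes that make and handle mitochondrial RNA were read from a list of 56, all of which passed the filter. At 0 h, 20 were higher and 11 lower in the libraries labelled Mettl3 cKO (31.9% and 22.5% of all genes), with a median of 0.02 where all genes had 0.07. At 2 h the counts were 24 and 11 (37.8% and 21.3% of all genes), with a median of 0.21 and 0.15 for all genes, and at 6 h they were 36 and 11 (46.4% and 19.8%), with a median of 0.62 and 0.32 for all genes. Of the 9 regulators in the nucleus, 7 were higher and 0 lower at 0 h. Of the 9 genes for stability, tails and decay, 3 were higher and 4 lower. The 15 genes for transcription and mitochondrial DNA had 2 higher and 4 lower, and the 23 for RNA processing and modification had 8 and 3. By the genotype by hour term 23 of 56 were positive and 0 negative, against 24.3% and 2.57% of all genes, whose split moved with the scale as given above. The limit from the sex of the 6 h Control libraries applies to this term here too.

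Where the average over all libraries reached 10 CPM, the differences of greatest size in this list at 0 h were higher in cKO. Below that level Slirp, a partner of the RNA-stabilising protein Lrpprc, had 4.34 ± 0.259 CPM in cKO and 8.40 ± 2.06 in Control (−0.95, SE 0.23, adjusted p = 0.00122), and was picked out after its values were seen. The gene Pde12 encodes a mitochondrial enzyme that removes poly(A) and had 123 ± 1.91 CPM in cKO at 0 h, against 61.6 ± 1.94 in Control (SD, n = 2 each), a log2 difference of 1.00 (adjusted p = 1.19e-11). Trmt10c, a subunit of the mitochondrial RNase P that cuts tRNAs from precursors, had 145 ± 4.43 in cKO and 81.7 ± 8.49 in Control (0.83, adjusted p = 6.57e-10). Mterf4, which acts in mitochondrial ribosome assembly, differed by 0.82, and Fastkd3, of a family of mitochondrial RNA-binding proteins, by 0.67. At 6 h these 4 genes differed by 3.02, 3.44, 3.06 and 2.42, and each was called positive by the genotype by hour term. On the other side Rpusd4, a pseudouridine synthase, differed by −0.62 (adjusted p = 1.09e-05) at 0 h. Hsd17b10, another RNase P subunit, had 45.2 ± 2.08 in cKO and 62.0 ± 4.37 in Control (−0.46, adjusted p = 2.53e-05). Grsf1, an RNA-binding protein of mitochondrial RNA granules, had 104.7 ± 0.487 in cKO and 141 ± 0.799 in Control (−0.43, adjusted p = 6.17e-07). Tfb2m, a factor for the start of mitochondrial transcription, differed by −0.38 (adjusted p = 0.00245). At 2 h Polrmt, the mitochondrial RNA polymerase, had 23.8 ± 0.241 in cKO and 35.4 ± 2.40 in Control (−0.57, adjusted p = 3.73e-06).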

How the data were processed

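Poly(A) RNA of 12 libraries was sequenced as 150 bp pairs. The authors aligned them with STAR 2.5.3a to mm10, retained only reads with a unique, high-scoring placement and counted Gencode exons with featureCounts 2.0.1, and the deposited counts are whole reads per gene without normalization. No source used here names the Gencode release, but all 37 mt- identifiers were found in release M21, from which positions and sequences were taken. The authors used edgeR for their own tests.

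CPM are reads scaled to the library total (16952084 to 20914516). The tests used edgeR 4.0.16 in R 4.3.3 (quasi-likelihood, 6 groups, filterByExpr with minimum count 10 and minimum total 15, Benjamini-Hochberg adjustment), were tested on simulated data, and made 8 comparisons. All mt- rows were named, and of the 56 nuclear genes up to 4 in each direction with the largest difference among those called at a mean of at least 10 CPM. Members and lists were chosen with earlier results of these data known. Alternatives were TMM, DESeq2 1.42.0 size factors, totals without mt- rows, no filter, at least 100 reads in every library, DESeq2's Wald test, a replicate block, fewer groups, and each library left out. A group left with 1 library was assumed to vary like the others.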

Additional observations from a re-analysis of the deposited data

Results flagged for a closer look

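The change over time differed between the genotypes by the genotype by hour term for 2 members. The value for mt-Nd1 was 0.0971 log2 per hour (cKO minus Control, SE 0.0335, adjusted p = 0.0488 from edgeR) and that for mt-Co1 was −0.058 (SE 0.0189, adjusted p = 0.0375). Without the 6 h libraries, of which only the Control ones expressed Xist, the values were 0.0396 (adjusted p = 0.711) and −0.0958 (adjusted p = 0.0758), and neither was called.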

How the results depend on the processing

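Of 1610 alternative values for 80 member results, 1473 kept their direction and their side of the threshold. A further 67 lost a call, 64 gained one and 6 turned round. Many of these fits could hardly move the value of a contrast, such as those without a library of a group outside it. For them a kept direction was fixed in advance. The 6 were the Control changes at 6 h against 0 h of mt-Nd4, mt-Nd5 and mt-Nd6, which were 0.2557, 0.3591 and 0.3183 with TMM and 0.3149, 0.4182 and 0.3776 with DESeq2 size factors. By construction those scales moved the median of all genes in that comparison, by 0.50 and 0.56. Members called for the genotype by hour term numbered 2. They were 4 with DESeq2 size factors, 1 with totals without mt- rows, 5 without a filter and 0 with a replicate block. In these 4 fits 55.1%, 89.9%, 92.0% and 91.6% of all calls were positive, where the main fit gave 90.4%. The cause of these changes in count was not tested. With libraries left out in turn the counts called were 8 to 10 at 0 h, 8 to 9 at 2 h and 7 to 10 at 6 h between genotypes, 3 to 9 and 7 to 8 in cKO at 2 h and 6 h against 0 h, 4 to 6 and 7 to 9 in Control, and 0 to 3 for the genotype by hour term. The mRNAs alone took 1.80% (cKO) and 2.75% (Control) of reads at 0 h, 1.44% and 2.49% at 2 h, and 1.29% and 2.39% at 6 h. With at least 100 reads in every library, fewer genes were tested, and calls over all genes were 0.623 to 0.648 times as many in the 7 contrasts. With the 0 and 2 h libraries only, calls for the genotype by hour term were 0.563 times as many.

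Libraries were not treated as paired by replicate number in the main tests. The correlations that follow have no reference value, so they do not decide if same-numbered libraries share a mouse or culture. Over 15 pairs of groups the deviations of same-numbered libraries correlated at −0.40 to 0.20, with 2 pairs over 0.1. The replicate block left 5 members called in Control at 2 h against 0 h and the other counts between groups as they were. Precision is limited by 2 libraries a group and not by depth.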
